A study of Mus musculus with 4 samples.

Results

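Genes of the cell division cycle and of DNA replication were followed in the skeletal muscle of male mice without corticotropin-releasing factor receptor 2. The members were chosen by gene symbol alone: cyclins (Ccna to Ccnl), numbered cyclin-dependent kinases (Cdk), their inhibitors (Cdkn), numbered Cdc genes, E2f and Tfdp transcription factors, Mcm2 to Mcm7, securin (Pttg1) and the Plk, Aurora and Bub1 kinases. This gave 79 genes of the 8251 named on the array, read by 106 of 12422 probe sets. Of the 79 genes, 57 had 1 probe set, 17 had 2 and 5 had 3. The choice by symbol also took in genes that carry a cell cycle name but mainly serve other processes or that fit none of the main roles, and these follow the main roles.

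Knockout mice (Crhr2-/-, here KO) were compared with wild-type littermates (Crhr2+/+, here WT), all male, 6.5 months old, on a mixed C57BL/6x129 background and untreated. From each genotype, RNA of the gastrocnemius and soleus of 4 mice went into 2 pools, 2 mice to a pool, and every pool was read on 1 Affymetrix U74Av2 array, on which a set of short probes gives 1 signal per transcript. The labels name no tissue-limited deletion. With 2 arrays per genotype, the errors below rest on the spread between pools and not between single mice. The SE of log2 fold changes also borrow spread from the other probe sets, by signal level. They are therefore not the spread of that probe set alone.

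Cells enter the cycle when D-type and E-type cyclins activate cyclin-dependent kinases, which release E2F transcription factors from the retinoblastoma protein. E2F with its DP partner then switches on the genes of DNA replication, among them the Mcm helicase that is loaded at origins before S phase. A and B cyclins with Cdk1 drive mitosis, and the anaphase-promoting complex ends it by destroying securin and the B cyclins. Muscle fibres have left the cycle for good, so signal of the proliferation genes in whole muscle can come from satellite cells, blood and vessel cells as well as from fibres. In whole muscle, fewer cells of a type and less RNA per cell cannot be told apart.

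Some facts of the arrays touch all results. Crhr2 itself read 100.4 and 75.1 in KO and 154 and 192 in WT on its brighter probe set, and 36.7 and 22.7 in KO and 18.8 and 45.3 in WT on the dimmer one. Where these probes lie relative to the deleted part was not known here. The tissue label held: Acta1, the actin of the fibre, read 19099 and 21770 in KO and 20692 and 19525 in WT. Ratios of 3' to 5' actin control signals were 0.729 and 0.866 in KO and 0.624 and 0.686 in WT. Exocrine pancreas markers summed to 8278 and 2730 in KO and to 1076.5 and 1075.6 in WT. Of their probe sets, 5 of 5 were higher in KO without overlap, against 17.0% of all probe sets. Liver markers summed to 277 and 405 in KO and to 658 and 1762 in WT. Of their probe sets, 9 of 9 were lower in KO, against 50.0% of all. Lymphocyte markers summed to 5142 and 6540 in KO and to 8777 and 5345 in WT. Of their 26 probe sets, which read only 9 genes, 14 were lowest in WT replicate 2, against 24.1% of all probe sets. Erythroid markers summed to 8907 and 7861 in KO and to 6805 and 5447 in WT, higher in both KO arrays. Of their 4 probe sets, 3 were higher in KO, against 50.0% of all probe sets. Without overlap was 1 of 4, against 34.6% of all. The part of these in the results was not tested.

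E2F target genes are known for an E2F site near the start, so these letters were looked up in the members' promoters. RefSeq promoter windows (build GRCm38.p6, 250 bases before to 50 after a start site) were found for 67 of the 79 genes, in 79 windows. The motifs TTCGCGC and TTGGCGC, which can overlap, were searched on both strands. At least 1 lay in 15.2% of the members' windows, against 3.89% of all 32851 windows. It was present in 11 of the 67 genes: 4 of 8 origin genes, 3 of 4 E2f and Tfdp genes, 2 of 14 kinases and partners, the 1 Cdc25 gene with a window and 1 of 12 other genes. Among genes with a window, no cyclin, inhibitor, anaphase-promoting complex gene or polo-like, Aurora or Bub1 kinase held one. Only 2 of 5 D-type and E-type cyclin genes and 2 of 3 A and B cyclin genes had a window. The following windows show each kind, with the motif letters in capitals and the strand of the gene.
Mcm6 (chr1:128359733-128359760, minus strand): tggacgggtTTGGCGCGAAgtagctcag
Mcm7 (chr5:138171848-138171875, minus strand): tgacgacgtTTCGCGCCAAtttcggttg
Cdc25a (chr9:109875504-109875531, plus strand): gaattccgtTTGGCGCCAActaggaaag
E2f8 (chr7:48881692-48881716, minus strand): aggcgcggaTTGGCGCgcggggccc
E2f3 (chr13:29986030-29986054, minus strand): gggaggaccTTGGCGCgtaaaccgt
Tfdp1 (chr8:13338699-13338723, plus strand): gcgccgaagGCGCGAAaaggcgcgc
The first 3 hold 2 overlapping matches that read on both strands, and the last 3 hold 1. A match is a description of these letters and not evidence that a factor binds there.

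Longer upstream stretches are given for an origin gene, a mitotic kinase and an inhibitor. Capitals mark the E2F motifs, the CHR element TTTGAA of genes expressed in G2 and mitosis, and the NF-Y box CCAAT, on either strand. CHR letters were in 21.5% of the members' windows and 17.9% of all windows, and CCAAT in 51.9% and 37.4%. Each stretch is the 250 bases before a start site.
Mcm5 (chr8:75109259-75109508, plus strand): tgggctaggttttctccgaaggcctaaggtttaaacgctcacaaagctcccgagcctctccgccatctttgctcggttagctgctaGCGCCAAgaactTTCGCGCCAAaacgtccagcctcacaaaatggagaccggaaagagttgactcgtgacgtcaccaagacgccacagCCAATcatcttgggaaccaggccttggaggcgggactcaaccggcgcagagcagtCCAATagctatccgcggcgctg
Cdk1 (chr10:69352913-69353162, minus strand): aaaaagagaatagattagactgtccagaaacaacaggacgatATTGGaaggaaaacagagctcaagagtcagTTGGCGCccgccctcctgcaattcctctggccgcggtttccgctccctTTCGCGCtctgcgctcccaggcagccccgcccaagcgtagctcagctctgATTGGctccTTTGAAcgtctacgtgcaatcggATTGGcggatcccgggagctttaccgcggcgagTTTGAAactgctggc
Cdkn1b (chr6:134920151-134920400, plus strand): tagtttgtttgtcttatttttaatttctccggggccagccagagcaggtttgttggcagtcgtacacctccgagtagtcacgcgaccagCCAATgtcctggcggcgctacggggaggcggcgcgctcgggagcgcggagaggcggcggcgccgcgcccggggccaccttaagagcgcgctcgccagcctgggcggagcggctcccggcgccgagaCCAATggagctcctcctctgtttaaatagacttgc
The Mcm5 stretch holds 3 E2F and 2 CCAAT matches, that of Cdk1 holds 2 E2F, 2 CHR and 3 CCAAT matches, and that of Cdkn1b holds 2 CCAAT matches.

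The list as a whole stood where the rest of the array stood. Values were compared as log2(intensity + 14) in a linear model of genotype over all probe sets (limma, Benjamini-Hochberg adjustment, two-sided, threshold 0.05), so folds of dim probe sets are understated. No member passed: 0 of 106 had an adjusted p under 0.05, as did 0 of all 12422 probe sets (background 0%), and the smallest adjusted p of a member was 0.803. An unadjusted p under 0.05 was reached by 5 members, or 4.72%, against a background of 5.43% of all probe sets. They were 2 of higher signal in KO, the inhibitors Cdkn1b and Cdkn1a (background 2.57%), and 3 of lower signal, Tfdp1, Pttg1 and Cdc42ep4 (background 2.86%). For any single value, an exact two-sided permutation test of 2 against 2 arrays cannot go below p = 0.333.

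Of the 106 probe sets, 48 were higher and 58 lower in KO, and over all probe sets 50.0% were lower. The members' median log2 fold change was -0.03, against 0.00 over all probe sets, and their median absolute log2 fold change was 0.17, against 0.19. The genotypes did not overlap for 37 members, or 34.9%, against a background of 34.6%. Of these, 17 were higher in KO (background 17.0%) and 20 lower (background 17.6%). A difference of at least 2-fold on this scale was seen in 4 members, or 3.77%, against 2.13% of all probe sets: Cdkn1b and a probe set of Mcm5 were higher, Pttg1 and Cdc42ep4 lower. In 21 members (19.8%) the difference between genotypes was larger than the gap between replicates in both groups, against 22.0% of all probe sets. The median's sign turned when KO replicate 1 was left out (0.0001), when WT replicate 1 was (0.04) and when WT replicate 2 was (0.01).

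**Figure D1:**
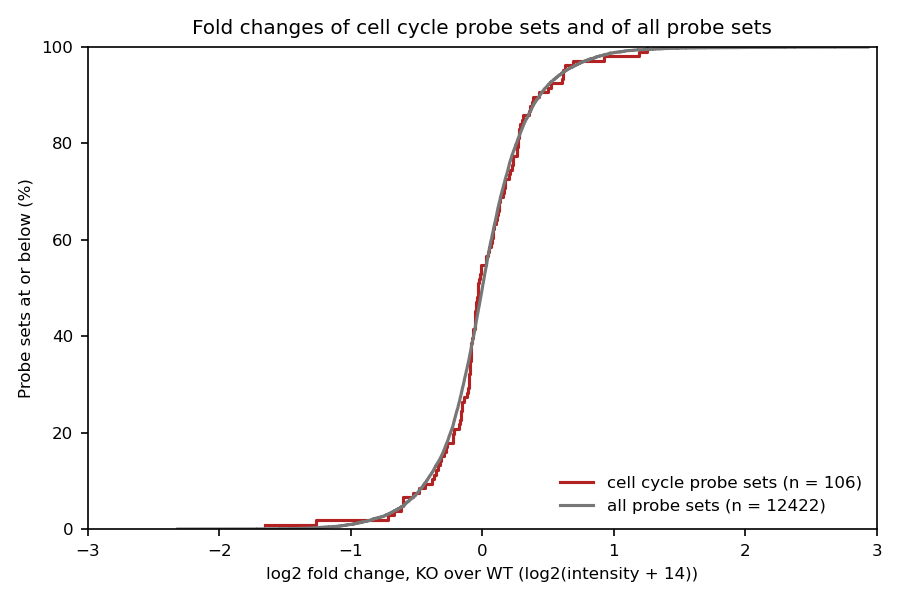
Cumulative share of probe sets (%) at or below each log2 fold change of KO over WT, for the 106 cell cycle probe sets (red) and all 12422 probe sets (grey). Both curves cross the middle close to 0, at medians of -0.03 and 0.00.

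The members' signals spread over the range of the array. Of the 106 probe sets, 51 (48.1%) had a mean signal above that of the median probe set, which by its definition 50% of all exceed. The brighter ones differed less between genotypes, with a median absolute log2 fold change of 0.10, against 0.27 for the dimmer. Over all probe sets these were 0.15 and 0.27. Of 22 genes with several probe sets, 13 had all of them on the same side (8 lower, 5 higher in KO) and 9 had them on both. No member gene lay within 20 Mb of Crhr2 on its chromosome.

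**Figure D2:**
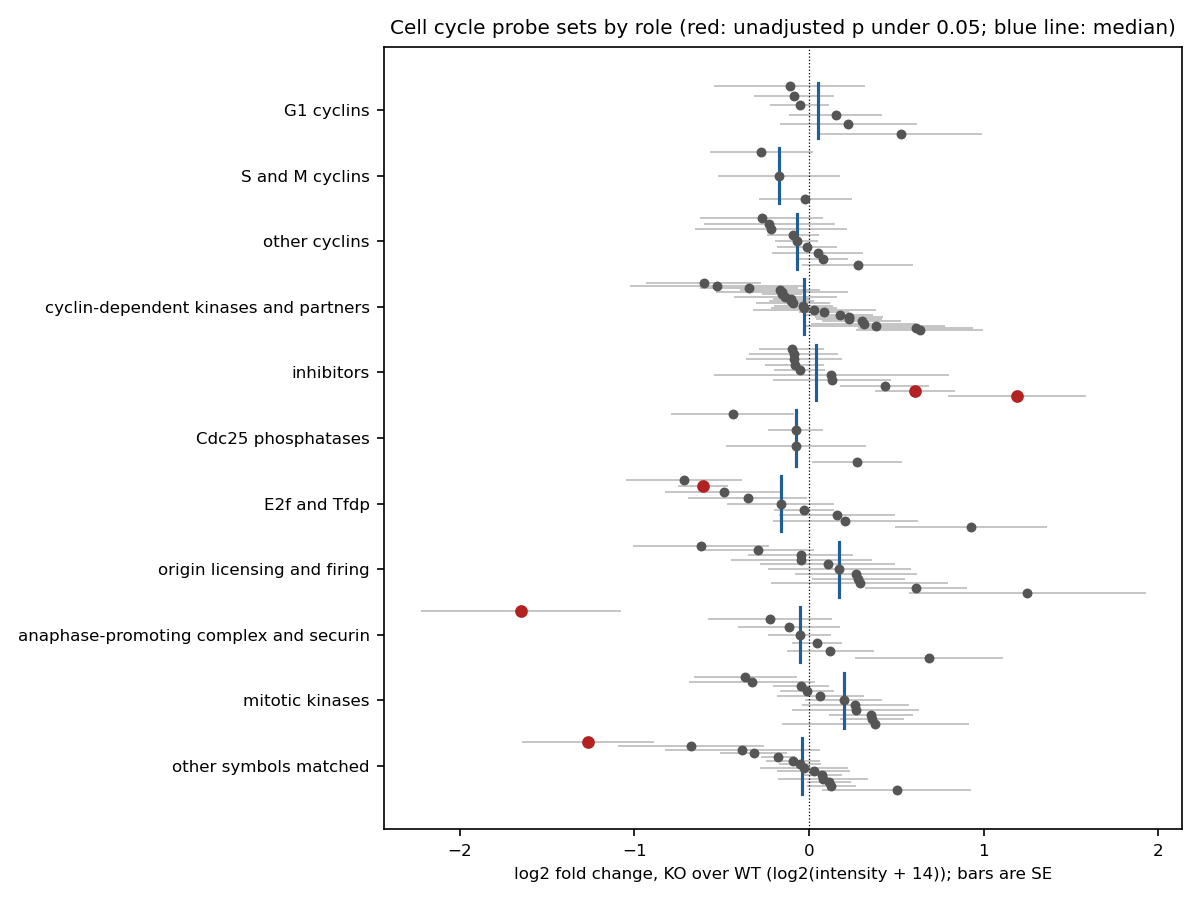
Log2 fold change of KO over WT (x axis) with its SE for each of the 106 probe sets, grouped by role (y axis). Red points have an unadjusted p under 0.05 and the blue line is the median of the role. The medians lie between -0.17 for the S and M cyclins and 0.20 for the mitotic kinases.

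The cyclins that open the cycle overlapped between genotypes on all 6 probe sets, 3 higher and 3 lower in KO. Ccnd3, the D-type cyclin that differentiating muscle cells keep, read 205 and 237 in KO and 245 and 215 in WT. Ccnd1, the growth-factor-induced D cyclin, read 86.6 and 100.1 in KO and 87.4 and 77.5 in WT on its brighter probe set. On its dimmer one it read 35.2 and 67.2 in KO and 45.5 and 18.5 in WT. In both Ccnd1 probe sets the KO replicate 2 signal was the highest of the 4 arrays. Ccnd2 was dim on every array, at 5.79 and 10.1 in KO and 7.84 and 10.6 in WT. Ccne1, the partner of Cdk2 at the entry into S phase, read 39.0 and 72.4 in KO and 38.2 and 50.2 in WT. Its relative Ccne2 read 8.74 and 15.1 in KO and 4.34 and 28.1 in WT. All 6 G1 cyclin signals, of 5 genes, were higher in KO replicate 2 than in KO replicate 1, which was noticed after the values were seen. KO replicate 1 was the higher of the KO arrays on 45.6% of all probe sets. It was so on 13 of 22 for the kinases and partners and 6 of 10 for the inhibitors.

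The A and B cyclins, which act in S phase and mitosis, also overlapped. Ccna2, the A cyclin of dividing somatic cells, read 50.0 and 47.1 in KO and 69.5 and 45.4 in WT. Ccnb2, a mitotic B cyclin, read 81.4 and 109 in KO and 96.0 and 96.1 in WT, with the KO pools on either side of the WT pools. Ccna1, whose main site is the germ line, was dim, at 2.49 and 5.54 in KO and 2.53 and 14.4 in WT.

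Of the other cyclins, Ccng1, a p53 target, read 1651 and 1397 in KO and 1513 and 1679 in WT. Ccng2, a cyclin of resting cells, read 183 and 178 in KO and 189 and 175 in WT. Both genes overlapped between genotypes. Ccni, an atypical cyclin of non-dividing tissue, read 482 and 351 in KO and 310 and 509 in WT on its brightest probe set, so the replicates of a genotype lay further apart than the genotypes. The splicing-linked Ccnl2 read 335 and 305 in KO and 370 and 315 in WT. Ccnc, which pairs with Cdk8 in the Mediator complex, read 38.3 and 27.1 in KO and 43.3 and 40.6 in WT, and was lower in both KO arrays. Ccnf and Ccnj overlapped. The 1 probe set higher in both KO arrays was a very dim one of Ccni, under 3 on every array. Over the 9 probe sets of these 7 genes the log2 fold changes ran from -0.27 to 0.28.

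The kinases and their partners were 10 higher and 12 lower over 22 probe sets, with log2 fold changes from -0.60 to 0.63. Cdk4, the partner of the D cyclins, read 408 and 373 in KO and 402 and 437 in WT on its brighter probe set, which overlapped. On the dimmer one it read 70.8 and 63.0 in KO and 92.5 and 84.5 in WT, lower in both KO arrays. Cdk2, the S phase kinase, read 150 and 168 in KO and 171 and 154 in WT, with its other probe set at 39.2 and 32.4 in KO and 29.5 and 40.5 in WT. Neither probe set of Cdk2 separated the genotypes. Cdk1, the mitotic kinase whose promoter is printed above, read 7.54 and 24.6 in KO and 14.3 and 47.0 in WT, and the replicates of each genotype differed more than the genotypes.

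Kinases of transcription were among the separated members. Cdk9, which releases paused RNA polymerase, read 167 and 158 in KO and 150 and 110 in WT. Cdk7, which serves in the transcription factor TFIIH and activates other Cdks, read 76.7 and 70.5 in KO and 53.8 and 59.2 in WT. Both were higher in both KO arrays, with log2 fold changes of 0.30 ± 0.22 and 0.31 ± 0.30 (SE, n = 2 arrays per genotype). Cdk11b, linked to splicing, separated on 2 of its 3 probe sets, at 195 and 164 in KO and 157 and 144 in WT on the brighter of these 2. The other, at 208 and 193 in KO and 193 and 218 in WT, did not. Cdk8 read 187 and 179.8 in KO and 234 and 165 in WT and overlapped.

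Cdk5 acts mainly in nerve cells and at the neuromuscular junction. It read 187 and 212 in KO and 154 and 184 in WT, higher in both KO arrays by 0.23 ± 0.19 on the log2 scale. Its activator Cdk5r2 was dim, at 24.7 and 42.9 in KO and 13.3 and 19.5 in WT (log2 fold change 0.63 ± 0.36), while the activator Cdk5r1 overlapped. The probe sets of Cdk5rap3, a Cdk5-binding protein, disagreed: the brighter read 154 and 173 in KO and 142 and 144 in WT, the dimmer 43.9 and 35.4 in KO and 65.8 and 68.7 in WT (-0.60 ± 0.33). Cdk16, a kinase of the PCTAIRE group, read 510.1 and 504 in KO and 549 and 583 in WT, lower in both KO arrays. Cdk2ap1, a Cdk2-binding protein, read 940.4 and 891 in KO and 999 and 969 in WT, again lower in both. Its relative Cdk2ap2 read 273 and 275 in KO and 254 and 261 in WT, higher in both KO arrays (0.09 ± 0.14). Cdk14 and Cdk18 overlapped. Of the 22 probe sets, 12 (54.5%) did not overlap, against 34.6% of all probe sets. Of these, 8 were higher in KO (background 17.0%) and 4 lower (background 17.6%), and 0 had an unadjusted p under 0.05 (background 5.43%).

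Inhibitors of the kinases held both members of higher signal with an unadjusted p under 0.05. Cdkn1b, or p27, which holds resting cells out of the cycle, read 29.0 and 62.4 in KO and 10.3 and 11.9 in WT. Both KO signals lay above both WT signals, though all 4 were dim. The log2 fold change was 1.19 ± 0.39, with an unadjusted p of 0.0224 and an adjusted p of 0.846 (limma). Its other probe set, 161010_r_at, read 24.8 and 30.7 in KO and 20.5 and 27.8 in WT and did not separate (0.13 ± 0.34).

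Cdkn1a, or p21, a p53 target that rises when myoblasts leave the cycle, read 158 and 213 in KO and 125 and 107 in WT on probe set 98067_at. The groups did not overlap, and the KO mean of 186 ± 38.9 stood against a WT mean of 116 ± 12.4 (SD, n = 2). The log2 fold change was 0.61 ± 0.23, with an unadjusted p of 0.0367 and an adjusted p of 0.862 (limma). On its other probe set, 94881_at, Cdkn1a read 178 and 115 in KO and 143 and 164 in WT. Here the KO arrays lay on either side of the WT arrays and the log2 fold change was -0.09 ± 0.25, so the probe sets differed in direction. KO replicate 2 was the highest array on 98067_at and the lowest on 94881_at.

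The remaining inhibitors, apart from Cdkn3, overlapped between genotypes. Cdkn2c, or p18, which blocks Cdk4 and Cdk6, read 436 and 378 in KO and 455 and 392 in WT. Cdkn1c, or p57, read 335 and 295 in KO and 289 and 395 in WT, and Cdkn2d, or p19, read 211 and 183 in KO and 204 and 214 in WT. These 3 had log2 fold changes of -0.05 to -0.10. Cdkn2a read 13.6 and 70.5 in KO and 14.3 and 55.0 in WT: replicate 2 exceeded replicate 1 in both genotypes, though the numbers do not pair the pools. Cdkn2b stayed under 15 on all 4 arrays. Cdkn3, a phosphatase acting on Cdk2, read 17.9 and 11.4 in KO and 5.50 and 8.74 in WT, higher in both KO arrays (0.43 ± 0.26) and dim.

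**Figure D3:**
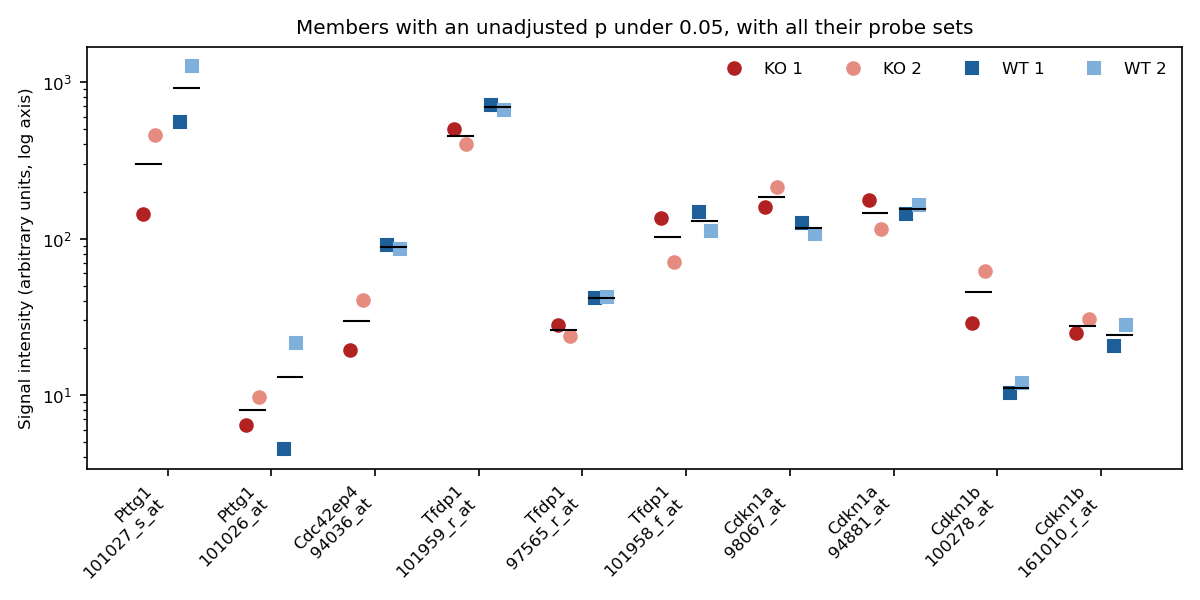
Signal intensity (arbitrary units, log axis) on each array for the 5 members with an unadjusted p under 0.05, with all their probe sets; circles are KO arrays, squares WT arrays and bars group means. Cdkn1a separates on 98067_at but not on 94881_at, and Pttg1 differs widely between replicates of the same genotype.

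Tfdp1, which encodes the DP1 partner with which the E2F proteins other than the atypical ones bind DNA, was lower in KO on all 3 of its probe sets. The brightest, 101959_r_at, read 500.2 and 402 in KO and 717 and 665 in WT, without overlap. The KO mean of 451 ± 69.5 was 65.3% of the WT mean of 691 ± 36.7 (SD, n = 2), a log2 fold change of -0.61 ± 0.14. Its unadjusted p of 0.00496 was the smallest of all members, and the adjusted p was 0.803 (limma). Probe set 97565_r_at read 28.1 and 23.8 in KO and 41.6 and 42.1 in WT, also without overlap (-0.49 ± 0.34). Probe set 101958_f_at read 135 and 70.4 in KO and 149 and 112 in WT and overlapped (-0.35 ± 0.34). The suffixes r and f mark probe sets for which design rules were relaxed or whose probes are shared by related sequences. Leaving out any 1 array kept the brightest probe set between -0.76 and -0.45.

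The E2F genes themselves were dim and mixed. E2f3, an activating E2F, read 33.7 and 43.3 in KO and 5.26 and 25.3 in WT, higher in both KO arrays (0.93 ± 0.44). E2f1, the E2F most tied to S phase entry, read 17.8 and 8.46 in KO and 30.6 and 29.1 in WT on 161427_f_at, lower in both (-0.72 ± 0.33). On its other probe set E2f1 was under 5 on all 4 arrays. E2f5, a repressive E2F, read 56.8 and 58.6 in KO and 58.1 and 42.9 in WT and overlapped. The atypical repressor E2f8 read 34.1 and 39.5 in KO and 18.9 and 44.7 in WT on its brighter probe set, and 20.5 and 19.1 in KO and 22.2 and 25.6 in WT on the other, where both KO arrays were lower. Over the 9 probe sets of the family, 3 were higher and 6 lower in KO, and 3 of the 6 were those of Tfdp1.

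Genes with an E2F motif in a promoter window were described by their brightest probe set. Of these 11 genes, 8 were higher and 3 lower in KO, with a median log2 fold change of 0.11. The 56 genes with a window but no match had 26 higher and 30 lower and a median of -0.02. The groups did not overlap for 4 of the 11 genes and for 21 of the 56, both shares being near the background of 34.6%.

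Origin licensing and firing genes were 7 higher and 4 lower in KO over 11 probe sets, with a median log2 fold change of 0.17. On each of them the replicates of at least 1 genotype lay further apart than the genotypes did. Mcm7, a subunit of the replicative helicase, read 70.9 and 128 in KO and 117 and 65.3 in WT. Mcm3 read 72.2 and 74.2 in KO and 88.4 and 65.4 in WT on its brighter probe set, and Mcm4 read 50.4 and 66.0 in KO and 82.8 and 65.6 in WT. None of these 3 subunits separated the genotypes. Mcm2 read 36.3 and 20.7 in KO and 21.9 and 19.5 in WT, and Mcm6 read 6.02 and 29.6 in KO and 11.8 and 12.6 in WT.

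Mcm5 was the one helicase gene without overlap. Its brighter probe set read 114 and 101.3 in KO and 98.4 and 74.9 in WT (0.28 ± 0.27). The dimmer, 162102_r_at, read 101.0 and 12.2 in KO and 9.76 and 8.46 in WT, and this log2 fold change of 1.25 ± 0.68 rested on KO replicate 1, being 0.18 without it. Cdc6, which loads the helicase, read 22.4 and 6.05 in KO and 31.0 and 24.3 in WT (-0.62 ± 0.39). Cdc7, the kinase that fires origins, read 7.39 and 21.1 in KO and 3.37 and 4.53 in WT (0.61 ± 0.29). Both separated the genotypes at dim signal. Cdc45, which joins the active helicase, read 27.3 and 67.2 in KO and 50.8 and 20.7 in WT and overlapped.

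The WT pools stood apart from each other in these origin genes, a pattern noticed after the values were seen. WT replicate 1 read above WT replicate 2 on 9 of 11 probe sets, against 48.2% of all probe sets, by a median of 0.28 on the log2 scale. The lowest of the 4 arrays was WT replicate 2 on 6 of the 11, against 24.1% of all probe sets. Lymphocyte markers ran the same way, with WT replicate 1 above WT replicate 2 on 22 of 26 probe sets (9 genes), and fibroblast markers on 7 of 9. KO replicate 1 was above KO replicate 2 on 4 of 11 origin, 9 of 26 lymphocyte and 7 of 9 fibroblast probe sets. WT replicate 1 was above WT replicate 2 on 9 of 16 skeletal muscle, 4 of 7 endothelial and 3 of 5 exocrine pancreas probe sets. For macrophages and neutrophils it was 5 of 12, for satellite cells 4 of 9, erythroid 2 of 4 and liver 2 of 9. Among the other roles the count ran from 1 of 4 Cdc25 probe sets, 3 of 10 for the inhibitors and 7 of 22 for the kinases and partners to 10 of 14 for the members outside the roles. In the list of further replication genes it was 24 of 41. Whether lymphocyte content bears on the origin genes was not tested.

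**Figure D4:**
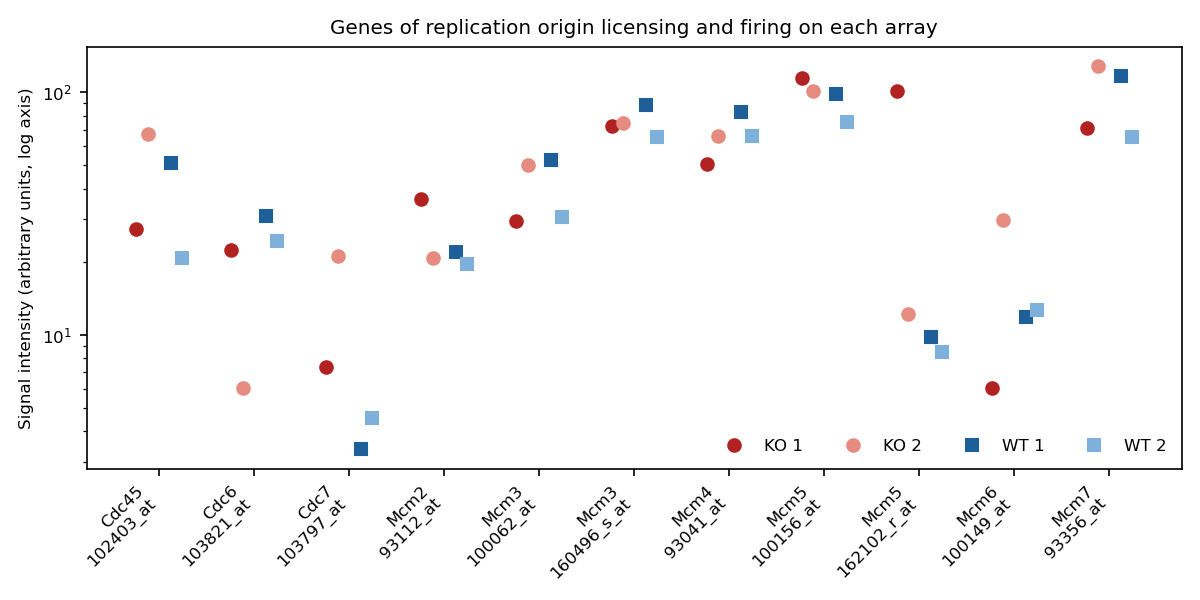
Signal intensity (arbitrary units, log axis) of the 11 probe sets for origin licensing and firing genes on each array; circles are KO arrays and squares WT arrays. WT replicate 1 lies above WT replicate 2 on 9 of the 11, and KO replicate 1 stands alone on Mcm5 probe set 162102_r_at.

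Pttg1 encodes securin, which holds separase inactive until anaphase, and had the most negative log2 fold change of all members. Probe set 101027_s_at read 143 and 462 in KO and 559 and 1267 in WT. Both KO arrays were below both WT arrays, but the replicates of each genotype differed more than 2-fold. The KO mean was 302 ± 225 and the WT mean 913 ± 501 (SD, n = 2), and the log2 fold change was -1.65 ± 0.57 with an unadjusted p of 0.0271 and an adjusted p of 0.846 (limma). Leaving out 1 array gave -0.85 (KO replicate 1), -2.45 (KO replicate 2), -2.23 (WT replicate 1) and -1.07 (WT replicate 2). The suffix s marks probes that more than 1 transcript can share. The other probe set read 6.42 and 9.66 in KO and 4.48 and 21.6 in WT. From lowest to highest, the arrays stood in the same order on 101027_s_at as in the summed liver markers, KO replicates 1 and 2 and then WT replicates 1 and 2. The match was noticed after the values were seen. The summed erythroid markers stood in the exact reverse order. Exocrine pancreas sums were highest in KO replicate 1, then KO replicate 2, while the WT sums were nearly equal at 1076.5 and 1075.6. The part of those markers in the Pttg1 result was not tested.

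Other genes of mitotic exit overlapped between genotypes. Cdc20, an activator of the anaphase-promoting complex, read 137 and 128 in KO and 101 and 144 in WT. Cdc16, a subunit of the complex, read 374 and 312 in KO and 406 and 309.7 in WT. The subunit Cdc26 read 304 and 329 in KO and 325 and 288 in WT. Cdc23, another subunit, read 167 and 95.3 in KO and 129 and 148 in WT on its brighter probe set, with 9.74 and 39.2 in KO and 6.46 and 9.84 in WT on the dimmer. The Cdc25 phosphatases switch on the Cdks. Cdc25a read 137 and 219.7 in KO and 139 and 144 in WT and overlapped, and Cdc25c read 35.5 and 27.9 in KO and 41.9 and 54.1 in WT, lower in both KO arrays (-0.44 ± 0.35). The second Cdc25a probe set was under 4 throughout, and that of Cdc25c overlapped.

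Mitotic kinases were 7 higher and 4 lower in KO over 11 probe sets, and no difference exceeded both gaps between replicates. Plk3, a stress-responsive polo-like kinase, read 2072 and 1854 in KO and 1261 and 1836 in WT. The groups did not overlap, but KO replicate 2 and WT replicate 2 were nearly equal and WT replicate 1 stood apart, so the log2 fold change of 0.36 ± 0.18 was 0.09 without WT replicate 1. Plk2, another stress-responsive member, read 180 and 247 in KO and 138 and 189 in WT and overlapped. Plk1, the main mitotic polo-like kinase, read 105 and 149 in KO and 124 and 115 in WT on its brightest probe set. Aurka, the centrosomal Aurora kinase, read 223 and 161 in KO and 151 and 176 in WT, and Aurkb, the centromeric one, 21.4 and 19.5 in KO and 39.1 and 21.1 in WT. Plk4, which starts centriole duplication, read 20.9 and 33.6 in KO and 25.9 and 14.7 in WT. The checkpoint kinase Bub1 stayed under 16 on its 3 probe sets, 2 of them lower in both KO arrays.

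Members matched by symbol that fit none of the roles above were 6 higher and 8 lower over 14 probe sets. Cdc42ep4, which binds the protein Cdc42, read 19.4 and 40.2 in KO and 90.5 and 86.1 in WT. The KO mean of 29.8 ± 14.8 was 33.7% of the WT mean of 88.3 ± 3.17 (SD, n = 2), a log2 fold change of -1.27 ± 0.38 with an unadjusted p of 0.0147 and an adjusted p of 0.803 (limma). Both KO signals lay below both WT signals. Cdc42 itself overlapped, at 1077 and 968 in KO and 1030.4 and 914 in WT. Cdc34, a ubiquitin-conjugating enzyme of cyclin and inhibitor turnover, read 1573 and 1461 in KO and 1692 and 1739.9 in WT, lower in both KO arrays (-0.18 ± 0.10). Ccndbp1, which binds D cyclins, read 471 and 703 in KO and 729 and 713 in WT, with KO replicate 1 alone far from the others (-0.32 ± 0.19). Ccnb1ip1 read 23.4 and 13.6 in KO and 54.2 and 24.5 in WT (-0.67 ± 0.42). Cdkn2aipnl read 215 and 225 in KO and 242 and 228 in WT, lower in both. The remaining members of this kind (Cdc123, Cdc37, Cdc42se1, Cdc42se2, Cdc5l, Cdc73 and the dimmer Cdc34 probe set) overlapped, with log2 fold changes from -0.38 to 0.50.

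Further genes of the pathway, outside the symbol rule, were listed by function: replication and nucleotide supply, mitosis, and pocket proteins with checkpoints. Of these, 75 genes were measured on 92 probe sets, and 0 passed the adjusted test, with 50 higher and 42 lower in KO and a median log2 fold change of 0.03. An unadjusted p under 0.05 was found for 3 of them, or 3.26%, against a background of 5.43%. Atm, the DNA double-strand break kinase, read 5.71 and 6.87 in KO and 22.0 and 34.0 in WT (-1.04 ± 0.29). Rfc5, a subunit of the loader of the replication clamp, read 44.3 and 49.7 in KO and 18.6 and 14.9 in WT (0.99 ± 0.33). The brighter probe set of Rfc5 read 46.0 and 85.9 in KO and 46.8 and 22.9 in WT and overlapped (0.71 ± 0.44). Wee1, which restrains Cdk1, read 41.1 and 59.6 in KO and 4.84 and 27.3 in WT (1.19 ± 0.47). The 3 probe sets with an unadjusted p under 0.05 were dim. Next in order came Ube2c, a ubiquitin-conjugating enzyme of mitotic exit, at 47.4 and 59.6 in KO and 19.9 and 28.0 in WT (0.83 ± 0.35). Hmgb2, a chromatin protein, read 6.12 and 12.8 in KO and 47.4 and 18.5 in WT (-0.94 ± 0.40). Cdt1, which helps Cdc6 load the helicase, read 31.8 and 42.3 in KO and 85.0 and 56.8 in WT (-0.72 ± 0.36), but 38.5 and 16.8 in KO and 13.2 and 9.73 in WT on its other probe set (0.66 ± 0.36).

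Some widely used proliferation markers of that list, chosen after their values were seen, are given by value. Mki67, a nuclear protein of cycling cells, read 40.9 and 54.5 in KO and 44.8 and 29.4 in WT on its brighter probe set, and Top2a, the topoisomerase of dividing cells, stayed under 6 on all 4 arrays. Pcna, the replication clamp, read 153 and 178 in KO and 183 and 173 in WT. On its dimmer probe set Mki67 read 17.2 and 13.2 in KO and 12.9 and 35.0 in WT. All of these overlapped, while others were lower or higher in both KO arrays. Rrm2, a subunit of the enzyme that makes deoxynucleotides, read 33.5 and 56.3 in KO and 60.1 and 63.7 in WT. Birc5, or survivin, read 29.4 and 33.7 in KO and 36.3 and 34.0 in WT, and both Rrm2 and Birc5 were lower in both KO arrays. Higher in both KO arrays were Nek2, at 86.5 and 80.9 in KO and 61.9 and 73.1 in WT, and Cenpa. Cenpa read 110 and 109 in KO and 59.0 and 102 in WT. Over the 92 probe sets, 30 (32.6%) did not overlap, 11 higher and 19 lower in KO, against 34.6% of all probe sets. Among markers of satellite cells and myoblasts, which are the muscle's own dividing cells, 7 of 8 genes were measured, with 3 probe sets higher and 6 lower in KO. Their summed signal was 1286 and 1300.1 in KO and 1381 and 1397 in WT, and the part of this in the results was not tested. Des, the brightest of these probe sets, read 574 and 490 in KO and 593 and 622 in WT. The sum leans on Des and is not a count of dividing cells. Of these 9 probe sets, 6 (66.7%) did not overlap, against 34.6% of all probe sets. In KO, 1 was higher (background 17.0%) and 5 lower (background 17.6%). The lower ones were Des, Myf5, both probe sets of Chrng and the brighter one of Cdh15. Myog, Myod1 and the dimmer Cdh15 probe set overlapped. The higher one was Pax3, at 35.5 and 42.6 in KO and 29.1 and 11.6 in WT. Chrng, the fetal acetylcholine receptor subunit, read 15.4 and 27.0 in KO and 44.9 and 64.1 in WT on its brighter probe set, lower in both KO arrays. Myod1, a factor of myogenic commitment, read 386 and 499 in KO and 386 and 395 in WT.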

How the data were processed

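The authors deposited linear signal intensities, 1 for each probe set on each array, in arbitrary units. From the values, these were already scaled to a common trimmed mean of 199.95 per array. How probes were summarised, background-corrected and called detected: not given in the sources used here. Depth has no meaning for arrays, and their number limits the precision. Of 12488 probe sets, 66 Affymetrix controls were left out and none was filtered on level.

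The platform annotation gave 1 symbol to 10833 probe sets, several to 396 and none to 1193. Symbols were checked through gene identifiers of GRCm38.p6, where 10817 of the 10833 and all 79 member genes were found. Values were log2(intensity + 14), with 14 taken as 20% of the median value. limma 3.58.1 in R 4.3.3 (lmFit, eBayes with intensity trend) was fitted over all 12422 probe sets and checked on simulated data. Errors of log2 fold changes are SE from the moderated variance of this fit, which is shared across probe sets, and those of group means are SD. The members and gene lists were chosen with earlier results of these data known. Members of the cyclin, inhibitor, E2F, origin and mitotic kinase groups could be named at any value. By rule, the 10 members per direction with the smallest unadjusted p were also named, and 3 per direction of the other pathway genes. Further genes, such as Cdk9 or Cdk16, were chosen after their values were seen. Replicate numbers do not pair the pools: over all probe sets, the differences between replicates 1 and 2 in KO and in WT had a correlation of 0.0034.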

Additional observations from a re-analysis of the deposited data

How the results depend on the processing

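The count of 0 members and 0 of all probe sets past the adjusted threshold held under every alternative run: a pseudocount of 3.5 or 56, a filter on dim probe sets, quantile normalization, centring on array medians, no intensity trend, a replicate block, 1 probe set per gene, and leaving out each array. With the replicate block, 5 members had an unadjusted p under 0.05, the same number as without it, and the median log2 fold change was -0.03. Keeping only the 51 members above the median probe set left 23 higher, 16 without overlap and 3 with an unadjusted p under 0.05, as fewer were tested. Leaving out 1 array gave 51 to 57 higher members, 65 to 75 without overlap, since 1 array then stands for a genotype, and 3 to 8 with an unadjusted p under 0.05. The median log2 fold change then ran from -0.0148 to 0.0351, with 0.0001 without KO replicate 1 and 0.01 without WT replicate 2. All 286 recomputed log2 fold changes of the 26 named probe sets kept their direction. These probe sets were chosen for small p, and all but that of Cdc23 had genotypes that did not overlap. For those, leaving out an array or changing the pseudocount could not turn the direction, so the agreement is not a check of them. With 2 arrays per genotype, differences of the size seen here did not pass the adjusted test and could not be told by it from the spread between pools. This held for members above the median probe set as well as for dim ones.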
